A study of Mus musculus with 4 samples.

Results

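Glucose uptake, glycolysis and lactate export were examined through 10 genes of 37310 in the deposited tables. They encode glucose transporters (Slc2a1, Slc2a3), hexokinases (Hk1, Hk2), phosphofructokinases (Pfkp, Pfkl), aldolase A (Aldoa), phosphoglycerate kinase 1 (Pgk1), lactate dehydrogenase A (Ldha) and the lactate transporter MCT1 (Slc16a1). Each was found by its symbol in the deposited tables and matched to its counts by Ensembl identifier. All 10 passed the filter on low counts that left 13904 genes for testing. RNA was sequenced from bone marrow natural killer (NK) cells, innate lymphocytes whose targets are virus-infected and tumour cells.

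The dKO group held 2 samples from C57BL/6 mice with the genotype Gabpb1l-/-Gabpb2-/-, lacking the long form of Gabpb1 and Gabpb2. The Ctrl group held 2 samples from littermate controls of the same strain. All were 6 to 8 weeks old per the labels, and the cells were gated as CD3e-NK1.1+CD49b+. Libraries followed Smart-seq2, a full-length cDNA protocol. GABP belongs to the Ets family of transcription factors, with a DNA-binding α subunit and a β subunit that activates transcription. Whether animals were pooled is not given in the sources used here, and no Cre driver is named.

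Glucose enters lymphocytes through facilitative transporters and is trapped by hexokinase as glucose 6-phosphate. Phosphofructokinase commits the sugar to glycolysis, aldolase splits it, and phosphoglycerate kinase makes ATP from the products. Lactate dehydrogenase then turns pyruvate into lactate, which regenerates NAD+, and monocarboxylate transporters carry lactate out of the cell. NK cells raise glycolysis when cytokines activate them, and resting NK cells run it at a lower rate.

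Gene counts summed to between 30233870 and 34724516 per library. Ctrl 1 had the most counts but the fewest genes detected, 15921 against 18206 in Ctrl 2 and 19450 and 19220 in dKO. Its share of counts outside genes was also the lowest, at 18.1% against 21.5% in Ctrl 2 and 23.8% and 24.3% in dKO. What this did to the levels of the members was not tested. Gabpb2, the gene deleted by label, had 85 and 86 counts in dKO against 1244 and 1009 in Ctrl, which follows the labels. Gabpb1, at 81.2 and 79.4 CPM (counts scaled to a common library size) in dKO against 57.1 and 52.0 CPM in Ctrl, was counted over the whole gene, which checks nothing about its long form. The sex-linked RNA Xist had 2 and 9 counts in dKO against 6066 and 6430 in Ctrl, and 4 Y-linked genes together had 13377 and 11940 counts in dKO against 0 in both Ctrl libraries. Genotype and sex therefore cannot be told apart here. The 10 NK marker genes examined summed to 10821 and 11141 CPM in dKO and 13800 and 12722 CPM in Ctrl, and 0 of the 10 were called. Their log2 fold change, dKO minus Ctrl, was negative for 7 (median -0.23), against 48.4% of all tested genes. Both dKO libraries lay below both Ctrl libraries for 6, against 19.9% of all tested genes. The lowest values were those of Gzma (-0.89), Nkg7 (-0.56) and Prf1 (-0.51). T cell markers were present despite the CD3e-negative gate and differed between the groups, as given with the other cell type markers after the members.

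Promoters of 4 members are shown because they place the RNA results beside the motif that GABP-type factors read. Ldha, Slc16a1 and Pfkp were lower in dKO in both libraries, and the groups overlapped for Pfkl. The sequences are from RefSeq on GRCm38.p6 and run from 250 bases before the annotated start to 50 bases after it, 5′ to 3′ on the gene's strand. Capitals mark CCGGAA, the core of many Ets sites, and ACGTG, a core read by hypoxia-inducible factor, each on either strand. ACGTG overlaps the E-box CACGTG that MYC binds, and every CACGTG holds ACGTG on both strands. Ldha has 2 annotated starts and the upstream window, chr7:46845554-46845853 on the plus strand, is shown. Slc16a1 lies at chr3:104638414-104638713 on the plus strand. Pfkp lies at chr13:6648722-6649021 on the minus strand, and Pfkl at chr10:78009758-78010057 on the minus strand.
Ldha: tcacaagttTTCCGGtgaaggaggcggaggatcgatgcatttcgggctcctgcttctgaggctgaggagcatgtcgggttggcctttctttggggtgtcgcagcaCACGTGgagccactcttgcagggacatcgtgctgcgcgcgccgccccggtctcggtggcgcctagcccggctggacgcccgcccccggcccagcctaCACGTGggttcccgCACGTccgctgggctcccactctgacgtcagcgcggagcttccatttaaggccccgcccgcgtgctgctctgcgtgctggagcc
Slc16a1: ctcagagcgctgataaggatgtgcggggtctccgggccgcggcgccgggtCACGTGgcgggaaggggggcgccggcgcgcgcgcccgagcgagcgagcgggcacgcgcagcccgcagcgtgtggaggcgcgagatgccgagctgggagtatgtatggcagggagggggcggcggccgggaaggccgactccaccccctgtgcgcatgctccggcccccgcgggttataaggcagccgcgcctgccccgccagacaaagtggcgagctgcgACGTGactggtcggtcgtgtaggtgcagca
Pfkp: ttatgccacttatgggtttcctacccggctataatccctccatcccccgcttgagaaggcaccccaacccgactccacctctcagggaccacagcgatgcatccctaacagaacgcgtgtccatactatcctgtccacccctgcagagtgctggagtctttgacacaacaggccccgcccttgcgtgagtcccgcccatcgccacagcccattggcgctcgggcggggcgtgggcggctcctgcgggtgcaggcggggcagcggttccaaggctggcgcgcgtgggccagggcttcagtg
Pfkl: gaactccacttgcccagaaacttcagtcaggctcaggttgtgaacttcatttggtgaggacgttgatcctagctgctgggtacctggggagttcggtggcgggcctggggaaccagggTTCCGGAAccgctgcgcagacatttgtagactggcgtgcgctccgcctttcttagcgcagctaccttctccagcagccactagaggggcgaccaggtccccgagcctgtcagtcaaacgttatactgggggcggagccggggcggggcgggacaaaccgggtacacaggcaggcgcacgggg

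The Pfkl window held 2 overlapping CCGGAA matches, in opposite directions, and the Ldha window held 1. The Slc16a1 and Pfkp windows held 0. Hk2, also lower in both dKO libraries, is not shown, and its window held 0 as well. Hk1 and Aldoa, which are not shown either, held CCGGAA and had overlapping groups. Among 13 windows of the 9 members found in the table, 4 held CCGGAA, in Hk1, Pfkl, Aldoa and Ldha, compared with 14.9% of 32851 windows of all genes. ACGTG was in 8 of the 13, compared with 19.6% of all windows, and CACGTG was in 2, compared with 7.15%. Aldoa windows 2 and 3 overlap and hold the same ACGTG match, so the 8 windows belong to 7 members. Slc2a3 was not in the table. These matches describe letters in a window and are not measured binding.

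No member passed the test between dKO and Ctrl. In edgeR's quasi-likelihood test with Benjamini-Hochberg adjustment over 13904 genes, 0 of the 10 had an adjusted p under 0.05, against 0.611% of all tested genes (0.316% higher and 0.295% lower in dKO). DESeq2 and limma-voom also called 0 of the 10, against 2.84% and 0.654% of all genes. At an unadjusted p under 0.05, 4 members passed (Slc16a1, Pfkp, Hk2 and Ldha), all lower in dKO, against 5.34% of all tested genes lower and 5.24% higher at that level. The log2 fold change, dKO minus Ctrl, was negative for 9 of 10 members with a median of -0.24, against 48.4% of all tested genes and a median of 0.01. Without the filter on low counts, edgeR called 3 members, Hk2, Ldha and Slc16a1, with adjusted p of 0.0205, 0.0287 and 0.0263, against 2.4% of the 23322 genes tested in that fit. The count of called genes over the table was 85 with the filter, 559 without it, and 187 with the filter but without Ctrl replicate 2.

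**Figure D1:**
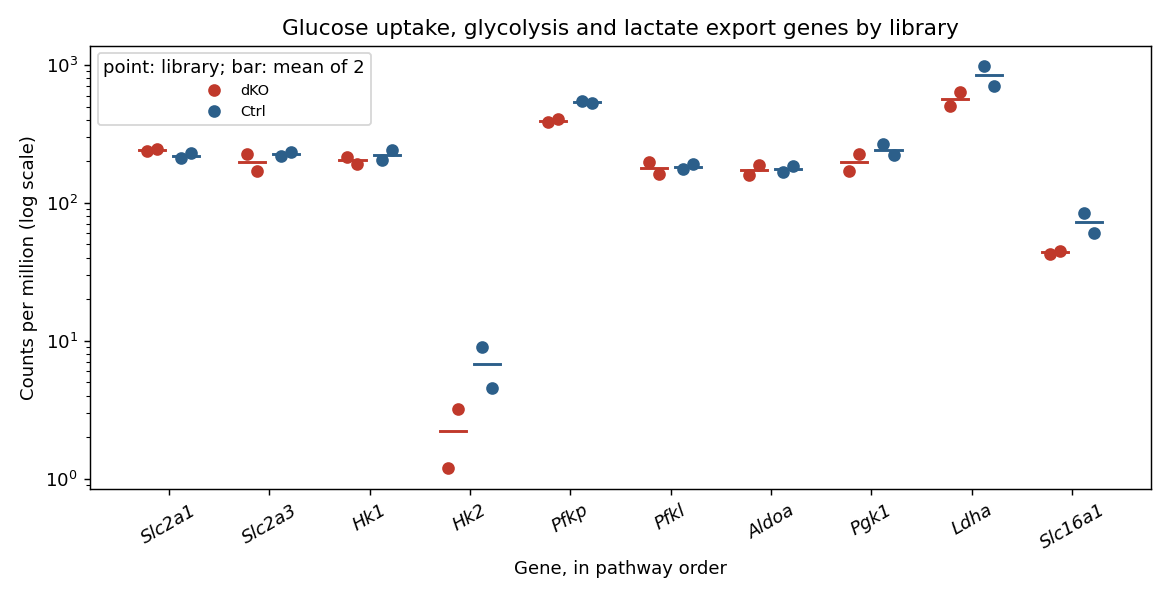
CPM (log axis) of each member in each library, dKO left and Ctrl right, with points for libraries and bars for the mean of 2. Both dKO points lie below both Ctrl points for Hk2, Pfkp, Ldha and Slc16a1, and both lie above for Slc2a1.

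Ordered by level per length, Ldha led the members. Its mean over the 4 libraries was 846 TPM, the transcript abundance scaled by length and library. Pfkp followed at 257 TPM, Pgk1 at 226 TPM and Aldoa at 217 TPM, and the library ranges of these neighbours overlapped. Slc2a1 averaged 153 TPM, Hk1 142 TPM, Pfkl 121 TPM and Slc2a3 119 TPM, again with overlapping neighbours. Slc16a1 stood apart at 20.1 TPM and Hk2 at 1.235 TPM. The members together made up 0.191% and 0.184% of TPM in dKO and 0.242% and 0.224% in Ctrl. Ldha was the largest part of this sum, at 651 and 718 TPM in dKO and 1141 and 872 TPM in Ctrl. The sum therefore says little about the other members. In bulk samples, a lower level may mean fewer cells that express a gene or less RNA per cell, and the measurements cannot tell them apart.

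Slc2a1 encodes GLUT1, the broadly expressed glucose transporter (chromosome 4 from 119108711 to 119137983 on GRCm38). It was at 239 and 246 CPM in dKO against 211 and 229 CPM in Ctrl. Both dKO libraries lay above both Ctrl libraries, the only member with that order, against 21.7% of all tested genes. The log2 fold change was 0.14 (SE 0.15, 95% interval -0.19 to 0.48, edgeR adjusted p = 0.811). Slc2a3, which encodes the high-affinity transporter GLUT3 (chromosome 6 from 122727809 to 122801640), was at 226 and 171 CPM in dKO against 217 and 232 CPM in Ctrl. The dKO libraries differed from each other more than the group means did, and the groups overlapped (log2 fold change -0.18, SE 0.18, adjusted p = 0.807). Without dKO replicate 2 the Slc2a3 value was 0.0085.

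The share of Slc2a3 in the summed TPM of both transporters was 45.6% and 35.7% in dKO and 46.0% and 46.8% in Ctrl. Both genes thus contributed similar amounts of transcript in 3 of the 4 libraries, and dKO 2 had the lower Slc2a3 share. The difference in share was -5.77 percentage points over all libraries, -10.7 without dKO replicate 1 and -0.855 without dKO replicate 2.

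Hk1 and Hk2 encode hexokinases that bind mitochondria, and Hk2 is the form induced in activated and growing cells. Hk1 (chromosome 10 from 62268855 to 62379908) was at 216 and 192 CPM in dKO against 206 and 241 CPM in Ctrl, with overlapping groups (log2 fold change -0.13, SE 0.16, edgeR adjusted p = 0.852). It ran from -0.24 to -0.015 with 1 library left out. Hk2 (chromosome 6 from 82725025 to 82774454) had only 38 and 97 counts in dKO against 304 and 150 in Ctrl, or 1.18 and 3.21 CPM against 8.93 and 4.52 CPM. Both dKO libraries lay below both Ctrl libraries, with wide gaps inside each group. Its log2 fold change was -1.62 (SE 0.56, 95% interval -2.91 to -0.32, adjusted p = 0.353). It was -2.51 without dKO replicate 2 and -1.05 without Ctrl replicate 1. Hk2 supplied 0.231% and 0.689% of the summed Hk1 and Hk2 TPM in dKO and 1.83% and 0.815% in Ctrl. Hk1 therefore made up nearly all hexokinase transcript of this pair in every library. Hk3, a hexokinase of myeloid cells chosen after its values were seen, was at 32.4 and 30.65 TPM in dKO against 35.1 and 34.5 TPM in Ctrl, above Hk2 in all 4.

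Pfkp and Pfkl encode the platelet and liver forms of phosphofructokinase, which joins fructose 6-phosphate to a further phosphate. Pfkp (chromosome 13 from 6579768 to 6648777) was at 388 and 404 CPM in dKO against 552 and 534 CPM in Ctrl. The libraries of each group were close together and the groups did not overlap, an order with dKO lower that 19.9% of all tested genes had and 4 of the 10 members. The log2 fold change was -0.46 (SE 0.14, 95% interval -0.78 to -0.13, edgeR adjusted p = 0.284), and it lay between -0.49 and -0.43 under every alternative run. Pfkl (chromosome 10 from 77986947 to 78010083), whose promoter held the paired CCGGAA match, was at 197 and 163 CPM in dKO against 176 and 191 CPM in Ctrl. The groups overlapped, with a log2 fold change of -0.03 (SE 0.16, adjusted p = 0.980).

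Pfkp supplied 61.9% and 67.5% of the TPM of this pair in dKO and 71.8% and 70.1% in Ctrl, so both dKO libraries had a smaller Pfkp share than both Ctrl libraries. The difference of -6.22 percentage points became -3.42 without dKO replicate 1 and -9.02 without dKO replicate 2. An exact two-sided permutation test of 2 against 2 libraries goes no lower than p = 0.33, and the shares are given here without a test. The summed level of both genes was 376 and 308 TPM in dKO and 405 and 422 TPM in Ctrl.

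**Figure D2:**
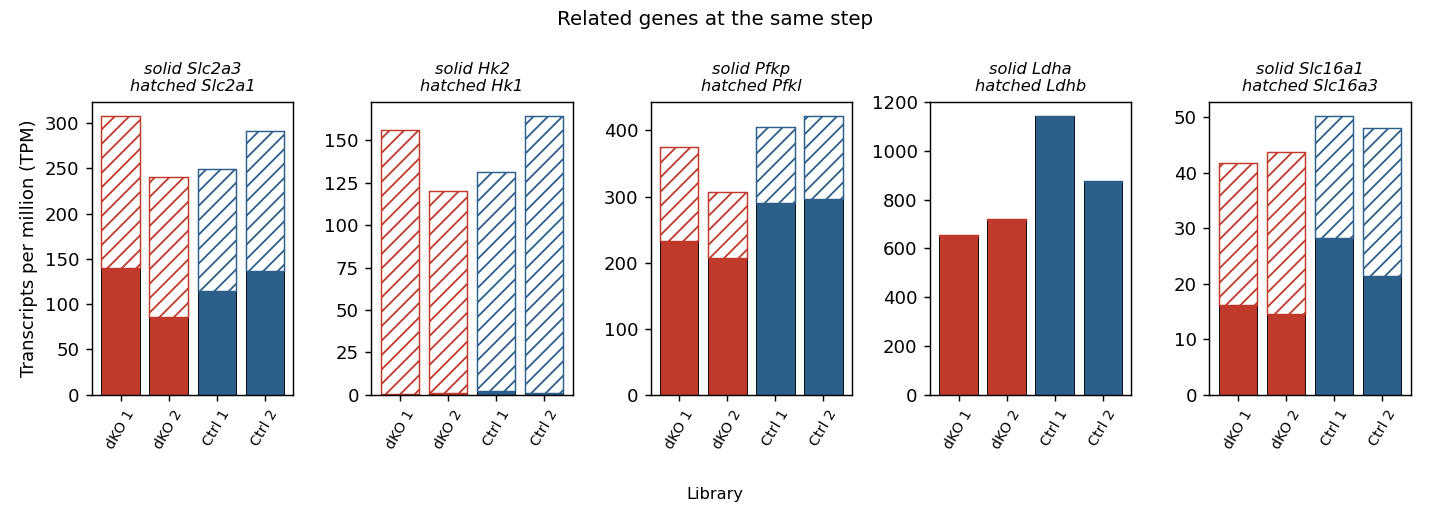
Stacked TPM of related genes in each library (dKO red, Ctrl blue), each panel from 0 on its own scale, with the gene named solid at the bottom. Hk2 and Ldhb are barely visible, and the Slc16a1 part is smaller in both dKO libraries (16.1 and 14.6 TPM) than in both Ctrl libraries (28.2 and 21.3 TPM).

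Aldoa, which encodes the aldolase that splits fructose 1,6-bisphosphate (chromosome 7 from 126795234 to 126800751), had overlapping groups. It was at 159.7 and 189 CPM in dKO against 168 and 184 CPM in Ctrl (log2 fold change -0.01, SE 0.16, 95% interval -0.38 to 0.36, edgeR adjusted p = 0.991). Pgk1 makes ATP in the payoff stage and is the X-linked member (chromosome X from 106187100 to 106203699). It was at 169.8 and 226 CPM in dKO against 266 and 221 CPM in Ctrl. The groups overlapped at dKO 2 and Ctrl 2, and the difference was within the spread (log2 fold change -0.30, SE 0.19, 95% interval -0.74 to 0.13, adjusted p = 0.657). It was -0.11 without dKO replicate 1 and -0.52 without dKO replicate 2.

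Ldha, which reduces pyruvate to lactate (chromosome 7 from 46841475 to 46855627), was the most abundant member. It had 503 and 633 CPM in dKO against 983 and 709.8 CPM in Ctrl. Both dKO libraries were lower, and Ctrl 1 stood well above the other 3. The log2 fold change was -0.58 (SE 0.20, 95% interval -1.04 to -0.11, edgeR adjusted p = 0.353), and it was -0.32 without Ctrl replicate 1. Ldhb, the heart-type subunit that favours the reverse reaction, had 31 and 12 counts in dKO against 47 and 51 in Ctrl. Ldha thus made up 99.7% and 99.9% of the TPM of both subunits in dKO and 99.9% and 99.7% in Ctrl.

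Slc16a1 (chromosome 3 from 104638668 to 104658462) had the smallest p of the members. It was at 42.8 and 44.6 CPM in dKO against 84.0 and 60.3 CPM in Ctrl. The dKO libraries were close together below both Ctrl libraries, and Ctrl 1 was again the highest. The log2 fold change was -0.72 (SE 0.21, 95% interval -1.21 to -0.24, edgeR adjusted p = 0.253), and it was -0.47 without Ctrl replicate 1. Slc16a3, which encodes MCT4, the lactate exporter of highly glycolytic cells, overlapped, at 28.0 and 31.8 CPM in dKO against 26.8 and 31.2 CPM in Ctrl (log2 fold change 0.05, SE 0.21, adjusted p = 0.973). Slc16a1 supplied 38.5% and 33.4% of the TPM of both transporters in dKO and 56.1% and 44.4% in Ctrl. The difference of -14.3 percentage points was -8.42 without Ctrl replicate 1.

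**Figure D3:**
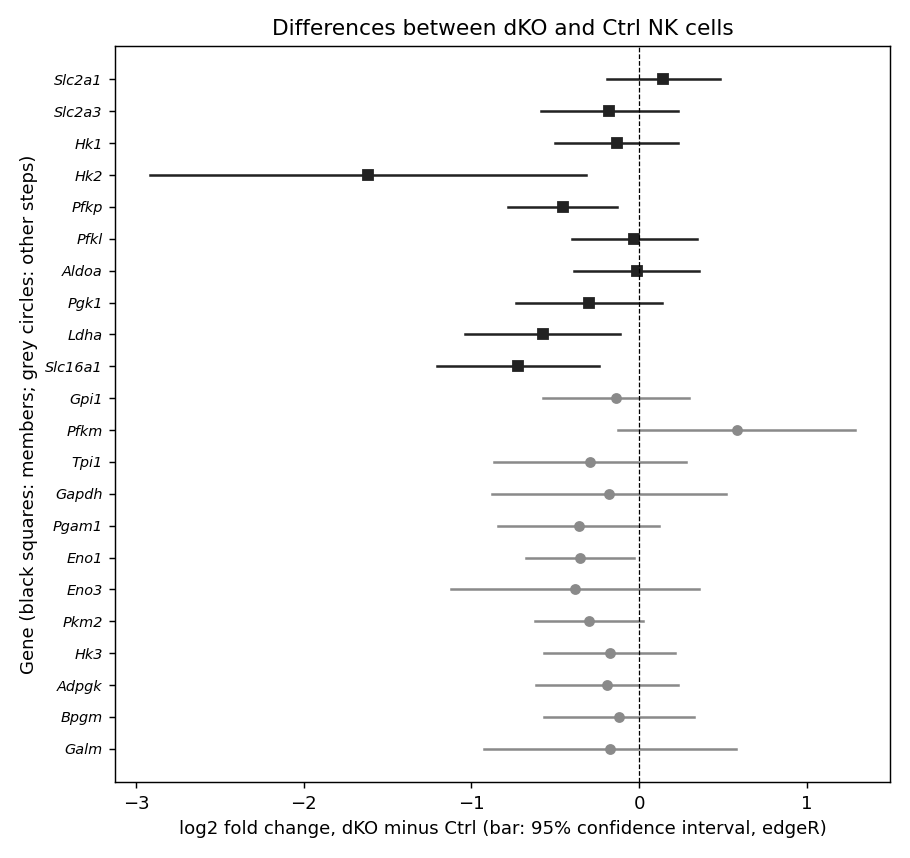
Log2 fold change, dKO minus Ctrl, with 95% confidence intervals from edgeR, for the members (black squares) and for the other tested glycolysis genes averaging 5 CPM or more (grey circles). The intervals of Hk2, Pfkp, Ldha and Slc16a1, and of Eno1 among the other genes, lie below 0 before adjustment. None of these genes passed after adjustment over all genes.

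The members did not share a single pattern across libraries. Ctrl 1 was the highest library for 5 members (Hk2, Pfkp, Pgk1, Ldha and Slc16a1), and dKO 1 was the lowest for those 5 and for Aldoa. Ctrl 2 was the highest for Slc2a3 and Hk1, and dKO 2 the lowest for Slc2a3, Hk1 and Pfkl. On the log2 CPM scale the highest and lowest libraries were 0.23 apart for Slc2a1 and 2.92 apart for Hk2. Ldha and Slc16a1 spanned 0.97 each.

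**Figure D4:**
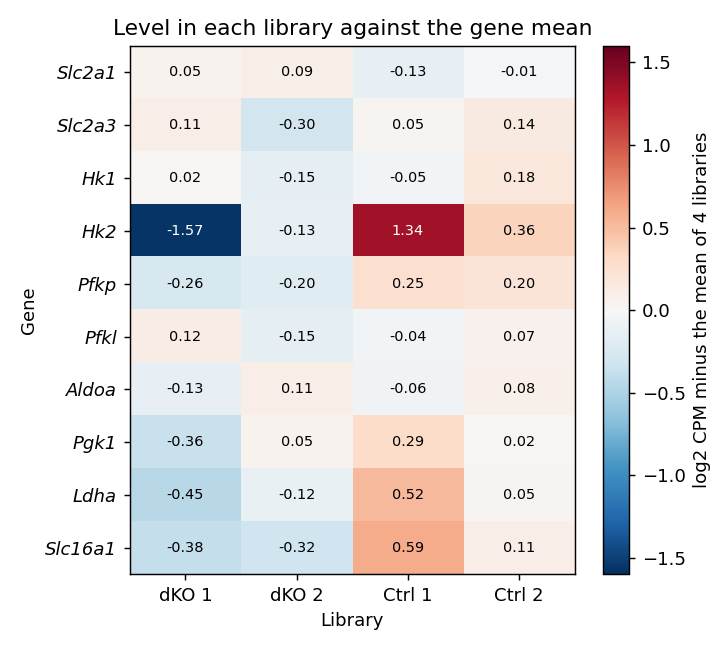
Log2 CPM of each member in each library minus the mean of the 4 libraries, dKO columns left of Ctrl columns. Hk2, Pfkp, Ldha and Slc16a1 are lowest in dKO 1 (-1.57, -0.26, -0.45 and -0.38) and highest in Ctrl 1 (1.34, 0.25, 0.52 and 0.59).

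Summed markers of dividing cells had the same order of libraries as Hk2, Pfkp, Ldha and Slc16a1. These are all 4 members whose dKO libraries lay below the Ctrl libraries, which limits the orders they could have. How many of all tested genes had this order was not counted. The summed NK markers had this order too, at 10821 and 11141 CPM in dKO and 13800 and 12722 CPM in Ctrl. The 10 cycling-cell markers summed to 357 and 596 CPM in dKO and 996 and 668 CPM in Ctrl, so the order from low to high was dKO 1, dKO 2, Ctrl 2 and Ctrl 1. The log2 fold change was negative for 9 of these 10 cycling-cell markers (median -0.88), 0 were called and 0 were at zero in all libraries. Both dKO libraries lay below both Ctrl libraries for 7 of them. Pcna went the other way, at 25.3 and 41.6 CPM in dKO against 16.5 and 11.7 CPM in Ctrl. The 10 neutrophil and granulocyte precursor markers summed to 1332 and 2195 CPM in dKO and 2163 and 2743 CPM in Ctrl. Of these markers, 0 were called and 0 were at zero in all libraries. Of that list 8 of 10 had a negative log2 fold change (median -0.42), against 48.4% of all tested genes. Both dKO libraries lay below both Ctrl libraries for 3 of 10, against 19.9% of all tested genes. These were Elane, Mpo and Prtn3, granule protein genes of early precursors, at -1.99, -1.97 and -1.75, with edgeR adjusted p of 0.112, 0.155 and 0.284. All 3 were highest in Ctrl 1, as were Hk2, Pfkp, Ldha and Slc16a1. Ctsg, also a granule protein gene of early precursors, overlapped between the groups, at -1.45. Genes of later granulocytes overlapped as well. Camp was at -0.02, S100a8 at -0.04, S100a9 at 0.12 and Lcn2 at 0.02, while Ltf was at -0.56 and Ngp at -0.29. The genes of this list were named after their values were seen. T cell markers also moved with the groups. Of the 10 in the list, all tested, 2 were called by edgeR, both lower in dKO, 9 had a negative log2 fold change and the median was -1.49. The dKO libraries lay below the Ctrl libraries for 8 of them, against 19.9% of all tested genes, and 0 were at zero in all libraries. Over all tested genes, 0.295% were called lower in dKO and 48.4% had a negative log2 fold change. Cd3e, a CD3 chain of the T cell receptor complex, was at 8.90 and 12.2 CPM in dKO against 47.5 and 52.5 CPM in Ctrl (log2 fold change -2.24, SE 0.24, edgeR adjusted p = 0.00790). Trac, the constant region of the T cell receptor α chain, was at 14.3 and 20.8 CPM in dKO against 58.2 and 73.2 CPM in Ctrl (-1.90, SE 0.25, adjusted p = 0.0207). The summed level of the list, 774 and 686 CPM in dKO and 952 and 871 CPM in Ctrl, was mostly Trbc1 and Trbc2, the β chain constant regions, and Trbc1 overlapped between the groups. Erythroid markers summed to 293 and 532 CPM in dKO and 401 and 572 CPM in Ctrl. The part of these transcripts in the values of Hk2, Pfkp, Ldha and Slc16a1, the members lower in both dKO libraries, was not tested.

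Of 21 other glycolysis genes, 16 were tested and 0 were called (edgeR). Their log2 fold change was negative for 13, against 48.4% of all tested genes, with a median of -0.18. Eno1, an enolase, had the smallest p, at 805 and 819 CPM in dKO against 1023 and 1049 CPM in Ctrl (log2 fold change -0.35, SE 0.14, adjusted p = 0.428). The pyruvate kinase gene Pkm2 was at 967 and 963 CPM in dKO against 1182 and 1186 CPM in Ctrl (-0.30, SE 0.14, adjusted p = 0.529). Both had groups that did not overlap and little spread within a group. Gapdh was at 791 and 1421 CPM in dKO against 1540.2 and 965 CPM in Ctrl and overlapped, and Tpi1, the triose phosphate isomerase gene, overlapped as well (adjusted p = 0.900 and 0.764). Gapdh had 4.11 to 4.59 counts per RSEM expected count and Eno1 2.63 to 2.91, against 1.91 to 2.12 for the members, so the levels of Gapdh and Eno1, which have near-identical copies in the genome, depended on the counting and are uncertain.

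Other sugar transporters gave 0 calls among 6 tested of 11. Slc2a10, which encodes GLUT10, was at 2.61 and 2.61 CPM in dKO against 8.46 and 9.28 CPM in Ctrl (log2 fold change -1.76, SE 0.33, edgeR adjusted p = 0.0766). Slc2a8, which encodes the intracellular transporter GLUT8, was at 50.2 and 51.6 CPM in dKO against 27.6 and 36.4 CPM in Ctrl (0.67, SE 0.21, adjusted p = 0.284). Neither group pair overlapped, and the weakly expressed Slc2a10 passed with DESeq2 (adjusted p = 0.00228), with a stricter filter (0.0480) and without a filter (0.00184).

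Partners of lactate transport gave 0 calls among 5 tested of 8. Bsg, the basigin gene whose product carries MCT1 and MCT4 to the membrane, was at 251 and 249 CPM in dKO against 313 and 263 CPM in Ctrl (log2 fold change -0.20, SE 0.16, adjusted p = 0.734, and -0.077 without Ctrl replicate 1). Emb, which encodes the related chaperone embigin, was at 122 and 149 CPM in dKO against 83.1 and 116 CPM in Ctrl (0.44, SE 0.21, adjusted p = 0.520, and 0.22 without Ctrl replicate 1).

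The list for fructose bisphosphate and sugar phosphate control, which also holds Txnip and Arrdc4, gave 0 calls among 8 tested of 10. Txnip, whose product limits glucose uptake, was at 1392 and 1274 CPM in dKO against 802 and 1091 CPM in Ctrl (log2 fold change 0.49, SE 0.18, edgeR adjusted p = 0.391). It was 0.29 without Ctrl replicate 1. Its relative Arrdc4 was at 21.3 and 19.7 CPM in dKO against 12.2 and 18.4 CPM in Ctrl (0.42, SE 0.27, adjusted p = 0.661, and 0.15 without Ctrl replicate 1). Both had dKO libraries above Ctrl libraries, the opposite order to Ldha and Slc16a1.

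Downstream and side branches also gave 0 calls in edgeR with the filter on low counts. Pyruvate entry into mitochondria had 13 of 14 genes tested and a median log2 fold change of -0.09, with Pdp1, a pyruvate dehydrogenase phosphatase gene, at -0.33 (SE 0.22). The Pdp1 value was -0.079 without Ctrl replicate 2. Brp44l was at 0.66 (SE 0.46) with gene counts but at -0.25 with RSEM expected counts. Its counts were 0.243 to 0.866 per expected count, below the range of the members, so its direction depended on the counting and is uncertain. The pentose phosphate pathway had 9 of 10 tested and a median of -0.16, with H6pd at 0.48 (SE 0.20) and Rpe at -0.41 (SE 0.22). The Rpe value was -0.074 without Ctrl replicate 1 and -0.68 without Ctrl replicate 2. Redox shuttles, which return NAD+ to the cytosol, had 12 of 12 tested and a median of -0.07. Among them Slc25a13, a mitochondrial aspartate-glutamate carrier gene, was at 4.17 and 6.09 CPM in dKO against 16.5 and 11.4 CPM in Ctrl (log2 fold change -1.45, SE 0.34, adjusted p = 0.151). Slc25a13 passed without the filter (edgeR adjusted p = 0.00217) and with DESeq2 (0.00882). Gpd2 of the glycerol phosphate shuttle was at 125 and 117 CPM in dKO against 171 and 150.3 CPM in Ctrl (-0.41, SE 0.16, adjusted p = 0.411).

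Regulators of glycolysis had 24 of 26 genes tested, 0 called, 12 negative and a median log2 fold change of 0.00078. Myc was at 439 ± 112 CPM in dKO and 445 ± 55.1 CPM in Ctrl (SD, n = 2), and Hif1a at 226 ± 24.8 CPM in dKO and 222 ± 53.5 CPM in Ctrl. Irf4, a transcription factor that lymphocytes induce on activation, was at 2.71 and 4.40 CPM in dKO against 15.4 and 12.9 CPM in Ctrl (log2 fold change -1.99, SE 0.35, edgeR adjusted p = 0.0564). Irf4 passed with DESeq2 (adjusted p = 4.23e-05), the stricter filter (0.0297) and RSEM counts (0.0409), without a filter (5.33e-06), and without Ctrl replicate 2 (0.0393) or dKO replicate 2 (0.0482). Egln3 had 11 and 21 counts in dKO against 1 and 3 in Ctrl. The 14 tested of 16 hypoxia-response genes outside glycolysis had a median of -0.03 and 0 calls, with Bnip3 at 0.40 (SE 0.19, and 0.24 without dKO replicate 1) and Ero1l at -0.30 (SE 0.17). Myc and Hif1a were chosen after their values were seen.

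The genes closest to Slc16a1 across the 4 libraries, among 8155 non-member genes averaging 10 CPM or more, were Slamf7, Ctps and Pdia3. Closeness is the root mean square difference of centred log2 CPM, which was 0.02, 0.03 and 0.04. All 3 were highest in Ctrl 1, as Slc16a1 was, which follows from how they were chosen.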

How the data were processed

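RNA of 4 NK cell samples was sequenced. Per the submitters' processing notes, the tools included TopHat2 2.1.1, HTSeq 0.6.1 and RSEM 1.3.0, on mm9, after Trimmomatic 0.36. The sources used here do not give their parameters, annotation or strand setting. The deposited files hold whole-number gene counts and, per the file headers, RSEM tables with expected counts, TPM and FPKM. FPKM values, which the authors also deposited, were not used.

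Rows that name no gene (18.1% to 24.3% of counts outside genes, 2.20% to 2.34% ambiguous) were left out. Counts were tested over 13904 genes with edgeR 4.0.16 (TMM scaling, minimum count 10, robust quasi-likelihood F test, Benjamini-Hochberg, threshold 0.05) in R 4.3.3. CPM use the TMM library size. SE is derived from the F statistic as |log2 fold change|/√F. TPM served for levels between genes, with no test. Counts were 2.05 to 2.07 times the expected counts (median over genes), so counting error exceeds that of the counts. The replicates are separate biological samples per the series design, and p-values rest on the spread edgeR shares across genes.

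Alternatives were RLE and upper-quartile scaling, no filter and a stricter filter (50 counts), DESeq2 1.42.0, limma-voom (limma 3.58.1), a fit that is not robust, rounded RSEM expected counts, the replicate block and leaving out each library. The procedure was also run on simulated counts whose spread was estimated from these same libraries. The outcome is not given here and is no check of the member results. Gene positions are from GENCODE M21 on GRCm38, matched by Ensembl identifier; the counts were made on another build. The members and the 9 pathway and 10 marker lists were chosen with earlier results of these data known. Named are the members, called genes of each list or else the 2 with the smallest p, partners of the pairs, the deleted genes, Gapdh, Pkm2, Tpi1 and the 3 genes nearest to the member with the smallest p. Marker lists not described above had 0 calls. Summed levels were 104 and 133 CPM in dKO and 108 and 239 CPM in Ctrl for the B lineage. They were 1490.0 and 1988 CPM in dKO and 1814 and 1956 CPM in Ctrl for monocytes, macrophages and dendritic cells. Basophil and mast cell markers summed to 15.7 and 34.0 CPM in dKO and 15.3 and 25.1 CPM in Ctrl, and stem and progenitor markers to 100.1 and 94.0 CPM in dKO and 87.0 and 119.9 CPM in Ctrl. Innate lymphoid markers summed to 421 and 389 CPM in dKO and 439 and 561 CPM in Ctrl.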

Additional observations from a re-analysis of the deposited data

How the results depend on the processing

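The number of genes called over the table was 85, and it was 559 without the filter, 170 with the stricter filter, 395 with DESeq2, and 73 to 187 with 1 library left out. Members called numbered 0 in every alternative except the unfiltered table, which called 3: Hk2 (adjusted p = 0.0205), Ldha (0.0287) and Slc16a1 (0.0263). The cause was not tested. Other pathway genes called numbered 0, and 3 without the filter, 2 with the stricter filter, 3 with DESeq2, 1 with RSEM expected counts and 0 to 1 with 1 library left out. The median log2 fold change of the members stayed between -0.32 and -0.21. Slc2a1, Hk1, Hk2, Pfkp, Pgk1, Ldha and Slc16a1 kept their direction in all 13 alternatives. The direction of other genes turned over, and not only where the value was small. Pfkl was 0.0040 and Aldoa 0.014 with RSEM expected counts. With 1 library left out, Slc2a3 ran from -0.39 to 0.0085, Pfkl from -0.17 to 0.10, Aldoa from -0.14 to 0.10, Slc16a3 from -0.065 to 0.16, Gapdh from -0.67 to 0.19 and Tpi1 from -0.59 to 0.023. Brp44l was 0.66 with gene counts and -0.25 with RSEM expected counts. With the replicate block 100 genes and 0 members were called. Same-numbered samples deviated from their group means with r = -0.0544 over 13904 genes. With 2 samples per group the crossed pairs give 0.0544 by construction. The labels do not say what a number shares, so whether the numbers pair the samples is not known. Leaving out a library leaves an arm with 1 sample, which is assumed to vary like the other arm. Hk2 and Ldhb are limited by low counts.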
